A study of Arabidopsis thaliana with 8 samples.

Results

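Plates TA21 to TA30 of an Arabidopsis thaliana chromosome 4 tiling array form a long stretch of low log ratios for dimethylated lysine 4 of histone H3 (H3K4me2). The stretch comprises the 824 tiles of these 10 plates that had a value in every array, of 21296 such tiles in all. The plates were chosen by their low medians in these same data, so their levels are given below as a description, and calls of single tiles on these levels do not support the choice. The material was 10-day-old seedlings of the accession C24, grown in liquid culture without treatment. DNA immunoprecipitated with an antibody against H3K4me2 (IP) was compared with input DNA from that chromatin, from 50 µg each, on 8 two-channel arrays. The arrays form 4 dye swaps, named replicates I, II, III and IV, and both arrays of a swap hold identical deposited values, so n was 4. All samples belong to 1 group, with no other genotype, antibody or treatment to compare. Nothing states that the replicates are separate cultures, so the spread between them may be technical. Replicate I was closest to III, and II to IV (below), so the 4 values did not behave as independent. Each SD with n = 4 carries that limit.

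Nucleosomes with H3K4me2 lie mainly in the transcribed genes of plant euchromatin, on active genes and also on genes that are silent but poised for expression. Heterochromatin, which is rich in transposons and other repeats and carries dimethylated lysine 9 of the same histone together with DNA methylation, generally lacks the mark. On Arabidopsis chromosome 4 heterochromatin surrounds the centromere, and some accessions carry a further heterochromatic knob on the short arm. Genes, coordinates and sequences of the tiles were not used here. Tiles are therefore named by plate and well, the numbering of the IDs is used as their order, and the stretch was not placed on the chromosome.

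Values are processed log ratios in deposited units, minus the median of the array over all tiles. The sources used here give neither their log base nor their direction (IP over input or the reverse), so a tile is called high or low relative to the array median and not enriched or depleted. The array medians removed were -0.79, -0.46, -0.89 and -0.35 in replicates I to IV, and the number of arrays limits the precision.

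The stretch as a whole lay about as far below the array median in each replicate. Its median was -2.15, -1.97, -2.14 and -1.91 in replicates I to IV, or -2.04 ± 0.12 (SD, n = 4). The 5th percentile of its tiles was at -3.87 ± 0.10 and the 95th at 1.18 ± 0.02, so the stretch also held tiles well above the median. Its interquartile range ran from -2.84 ± 0.11 to -0.87 ± 0.08. Of the 824 tile means, 420 (51%) were more than 2 below the array median, against 13.4% of all tiles. A level more than 3 below was reached by 167 (20.3%), against 3.92% of all tiles. The median of all other tiles was 0.05.

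In limma's fit of each tile against the array median, made over all tiles with Benjamini-Hochberg adjustment at 0.05, 681 of the 824 were below (background 42.3%) and 98 were above (background 42.2%). These counts follow from the way the plates were chosen and are given as a description. The sign was negative in all 4 replicates for 681 tiles (background 43.2%) and positive in all 4 for 103 (background 43%). With deposited values not centred, the numbers called below and above 0 were 720 and 48, and with each array centred on its mode they were 726 and 49. The count of high tiles thus depends on where zero is set.

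**Figure D1:**
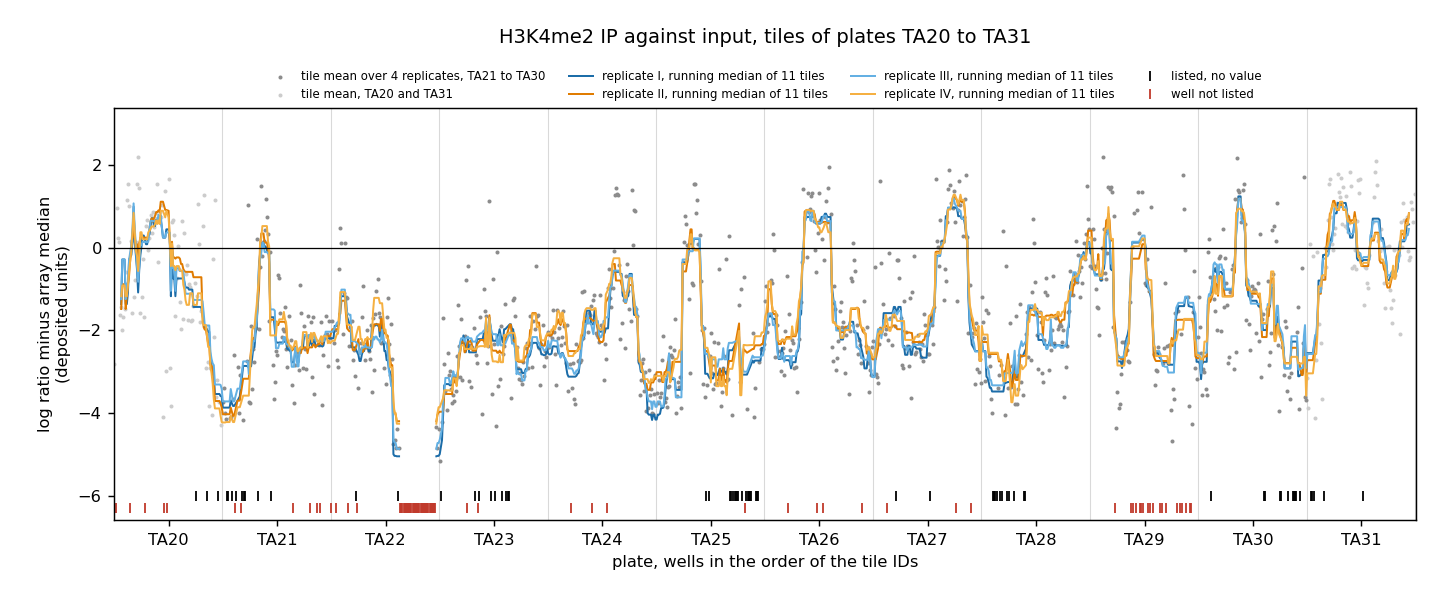
Log ratio minus array median (deposited units) against tile order for plates TA20 to TA31. Grey points are tile means over 4 replicates and coloured lines are running medians of 11 tiles in each replicate, broken at the long gap in TA22. Ticks at the bottom mark wells that are listed without a value or not listed. The level starts low before the end of TA20, reaches its lowest point in TA22 and returns to the array median in TA31, with several high islands in between.

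The 10 plates were not equally low. The median of plate TA21 was -2.41, -2.41, -2.34 and -2.28 in replicates I to IV. Plate TA22 had medians of -2.41, -2.18, -2.32 and -2.19 in the same order, and TA23 had -2.59, -2.53, -2.45 and -2.42. All 4 replicates thus placed these plates more than 2 below the array median. For TA24 the values were -2.15, -1.97, -2.19 and -1.89, and TA25 was the lowest plate by its mean, with -2.78, -2.50, -2.61 and -2.60. The plates that followed were all higher than these, TA26 with -1.78, -1.73, -1.87 and -1.54 and TA27 with -1.48, -1.71, -1.61 and -1.51. TA28 had medians of -1.94, -1.64, -1.86 and -1.60. In TA29 they were -1.43, -1.63, -1.35 and -1.70, and in TA30 they were -1.42, -1.31, -1.36 and -1.22. In every replicate each of TA26 to TA30 lay above all of TA21 to TA25.

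Taken as 5 plates each, a division made after the medians were seen, TA21 to TA25 had a median of -2.36 ± 0.09 (SD, n = 4) and TA26 to TA30 one of -1.60 ± 0.06. The latter lay higher by 0.82, 0.70, 0.78 and 0.71 in replicates I to IV. Of the 394 tiles on TA21 to TA25, 246 (62.4%) had means more than 2 below the array median and 24 (6.09%) were above it in all replicates. On TA26 to TA30 the corresponding counts were 174 of 430 (40.5%) and 79 (18.4%). With the tiles of islands (defined below) set aside, the plate medians of TA26 to TA30 ran from -2.03 ± 0.18 in TA26 to -1.71 ± 0.17 in TA30. Those of TA21 to TA25 ran from -2.78 ± 0.16 in TA25 to -2.12 ± 0.15 in TA24. By these means each later plate was also less low, but TA26 and TA24 differed by less than the SD of either. Single and paired high tiles were kept in these medians.

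**Figure D2:**
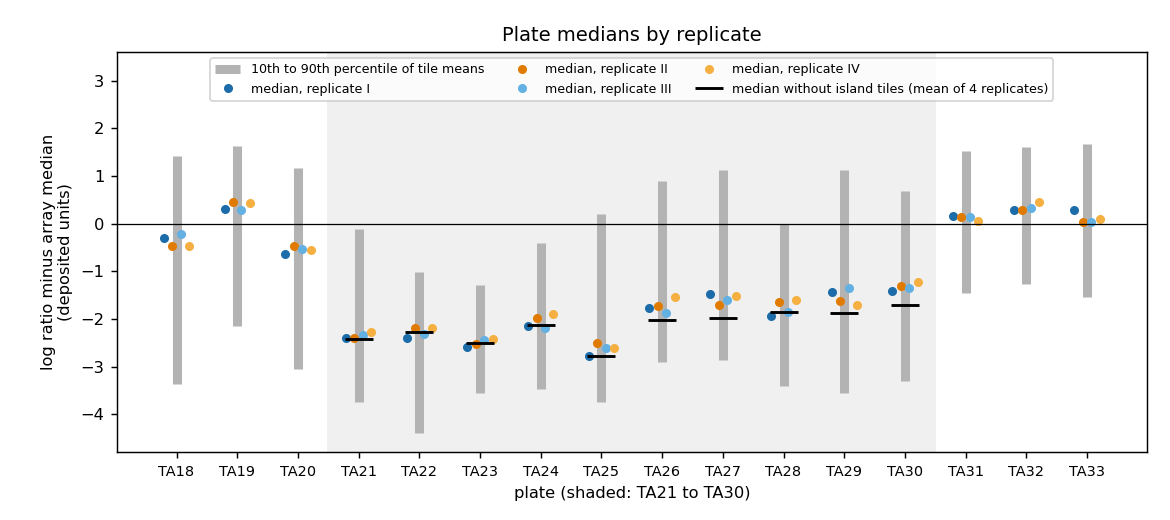
Plate medians of the log ratio minus array median (deposited units) for plates TA18 to TA33, with 1 point per replicate. Grey bars span the 10th to the 90th percentile of tile means, and black dashes give the median without island tiles for the shaded plates TA21 to TA30. The points of the shaded plates run from -2.78 to -1.22, and those of TA20 and TA31 lie above them, at -0.55 and 0.12 on average.

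The plates just outside differed from those just inside. TA20 had a median of -0.55 ± 0.07 (SD, n = 4) and TA31 one of 0.12 ± 0.05, against -2.36 ± 0.06 in TA21 and -1.33 ± 0.09 in TA30. The low level itself did not begin or end at a plate border. The last tile of TA20, TA20H12, was at -3.87, -4.03, -3.75 and -4.39 in replicates I to IV. The first tile of TA21, TA21A01, was at -3.59, -3.87, -3.42 and -4.07. Both were thus far below the array median in every replicate.

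At the other end, TA30H12 was at -3.64, -3.70, -3.43 and -3.94, and TA31A01 was at -3.04, -3.08, -2.91 and -3.58. Followed outward from both ends for as long as a running median of 11 tiles stayed under -1, a limit set after the values were seen, the low level reached TA20F11 and TA31A10. Inside the 10 plates the running median was under -1 at 653 of the 824 tiles and above 0 at 90. The outward extension added 23 tiles before TA21, with a median of -1.91 ± 0.05 (SD, n = 4), and 7 after TA30, with one of -2.72 ± 0.23. The 10 tiles beyond these ends had medians of -0.91 ± 0.26 before and -0.57 ± 0.18 after. Row H of TA20 was the lowest row of that plate, at -3.61 ± 0.25, and in TA31 row A was at -1.84 ± 0.18 and row B already at 0.02 ± 0.22.

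The lowest levels of the stretch were concentrated at 1 place. Its 5 lowest tiles, TA23A01, TA22H11, TA22E10, TA22F01 and TA22E08, ranked 2 to 6 from the lowest among all 21296 tiles. They lay within 42 successive well positions from TA22E08 to TA23A01, of which 9 had a value, 1 was blank and 32 are not listed. All 9 measured tiles were among the 20 lowest of the array, and 12 of those 20 were on plates TA21 to TA30. TA23A01 was at -5.65, -4.76, -5.54 and -4.71 in replicates I to IV. TA22H11 was at -5.50, -4.37, -5.20 and -4.38, and TA22F01 at -5.54, -4.37, -5.17 and -4.26.

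These 9 tiles were alike within a replicate and differed between replicates. Their values ran from -5.65 to -5.00 in I, from -4.76 to -3.84 in II, from -5.54 to -4.65 in III and from -4.71 to -3.64 in IV. Replicates I and II did not overlap here, while those of III and IV did by a little. Just before, TA22E07 had a mean of -2.70, against -4.76 in TA22E08. The 32 unlisted positions, TA22F02 to TA22H09, formed the longest run of wells without a value in the 10 plates, and the tiles on both sides of it, TA22F01 at -4.84 ± 0.62 (SD, n = 4) and TA22H10 at -4.35 ± 0.61, were at similar levels.

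**Figure D3:**
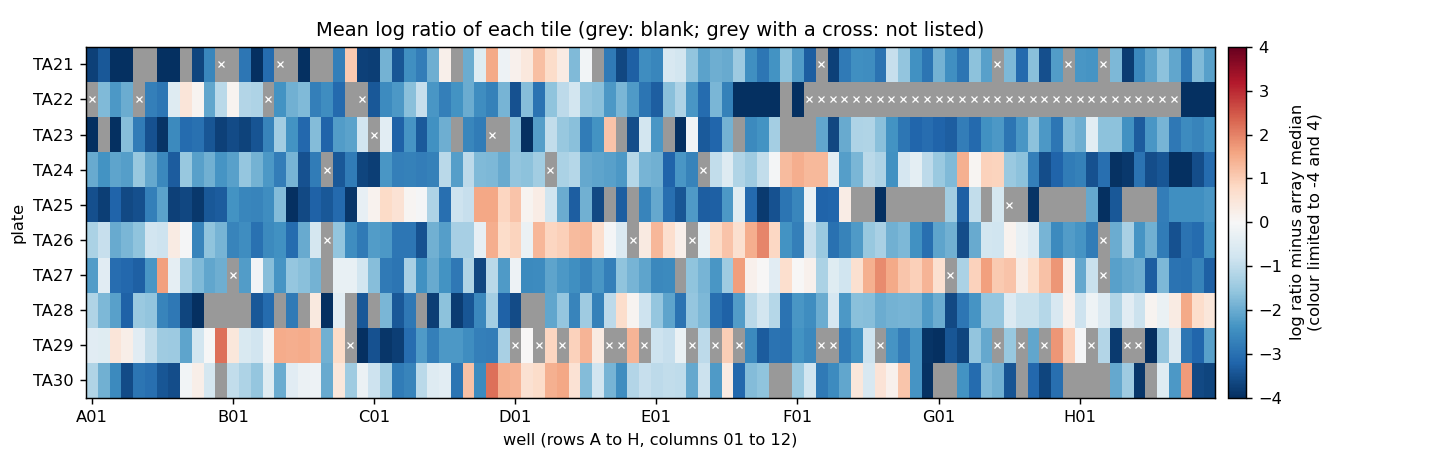
Mean log ratio of each tile minus array median (colour, deposited units, limited to -4 and 4) by plate (vertical) and well in row order (horizontal). Grey cells are blank and crosses mark wells that are not listed. Red cells form short islands, mostly in TA26, TA27, TA29 and TA30, and dark blue cells, at or near the lower colour limit, occur on both sides of the unlisted wells of TA22 and in other places.

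Further runs of very low tiles occurred elsewhere. With 5 or more successive measured tiles at a mean under -3 as the limit, set after the values were seen, 7 runs with 54 tiles touched the 10 plates. The 12 tiles of TA20H07 to TA21A10, with 4 blank wells among them, had a median of -3.79, -3.95, -3.57 and -4.23 in replicates I to IV. The 11 tiles of TA24H07 to TA25A05 had medians of -4.16, -3.18, -3.85 and -3.11. Replicates I and III were therefore the lower ones in this run, and II and IV in the run at TA20H07.

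The 6 tiles of TA25B06 to TA25B11 had medians of -4.14, -2.97, -3.81 and -2.92 in replicates I to IV, and the 5 of TA29B12 to TA29C04 had -4.05, -3.48, -4.04 and -3.46. The 5 of TA23A11 to TA23B03 were at -3.49, -3.71, -3.35 and -3.74, and the 5 of TA25A08 to TA25A12 at -3.87, -3.43, -3.84 and -3.42. The order of the replicates therefore varied from run to run.

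A less strict limit gave longer runs, some of which contain the very low tiles given above. The longest run of successive measured tiles with means more than 1 below the array median had 60 tiles, from TA23H03 to TA24E04. Its median was -2.18 and its tiles ran from -3.78 to -1.04. The next had 43 tiles, from TA22D07 to TA23B11, with a median of -3.07. It bridges the 32 unlisted wells of TA22 and contains the lowest tiles of the stretch, down to -5.17. The third had 41, from TA24G07 to TA25B11, with a median of -3.38, and contains the runs that start at TA24H07, TA25A08 and TA25B06. All of these runs lay on TA22 to TA25. In the 10 plates 601 tiles (72.9%, background 26.3%) had such means, and they formed 73 runs.

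High tiles inside the stretch came mostly in islands, defined as 3 or more successive measured tiles above the array median in all 4 replicates. There were 15 islands with 74 of the 103 tiles that were high in every replicate. The other high tiles occurred as 21 single tiles and 4 pairs. With values not centred the number of islands fell to 6, and with centring on the mode to 4. TA21 held 1 island, TA24 held 1, TA25 held 2, and the other 11 lay on TA26 to TA30. No island was found on TA22 or TA23.

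The longest island, the 9 tiles of TA27G04 to TA27G12, had a median of 0.77, 1.15, 0.73 and 1.29 in replicates I to IV. Another island of TA27, the 8 tiles of TA27F06 to TA27G01, had medians of 1.14, 1.12, 1.28 and 1.13. Both were above the array median throughout, and they were separated by the unlisted well TA27G02 and by TA27G03 at a mean of -1.28. After them the level fell within 1 well, from 0.27 in TA27G12 to -2.05 in TA27H01. TA27F08, at 1.75, 1.93, 1.71 and 2.19, and TA27G11, at 1.75, 1.82, 1.79 and 1.68, were among the 5 highest tiles of the stretch.

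On TA26, 4 islands followed each other from TA26C11 to TA26E11 with gaps near the array median. TA26C11 to TA26D01 (3 tiles) had a median of 0.90 ± 0.23 (SD, n = 4) and TA26D03 to TA26D08 (6 tiles) one of 1.05 ± 0.08. They were followed by TA26D12 to TA26E02 (3 tiles) at 0.67 ± 0.07. TA26E06 to TA26E11 (6 tiles) had medians of 1.14, 0.92, 1.13 and 0.79 in replicates I to IV. TA26E10, a further one of the 5 highest tiles, was at 2.09, 1.98, 2.01 and 1.72 in replicates I to IV. This series of islands ended at TA26E12, with a mean of -2.39.

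On TA30 the 8 tiles of TA30C11 to TA30D06 formed an island with a median of 1.30, 1.32, 1.43 and 1.32 in replicates I to IV. Their first tile, TA30C11, was at 2.10, 2.17, 2.31 and 2.15, and the tile before it, TA30C10, at -2.46, -2.62, -2.42 and -2.62. This rise of 4.72 ± 0.10 (SD, n = 4) was among the 3 largest steps between adjacent wells in the stretch. TA30F08 to TA30F10 (3 tiles) formed another island on this plate, at 0.54 ± 0.08.

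The other islands were shorter. TA29B05 to TA29B08 (4 tiles) had a median of 1.43 ± 0.32 (SD, n = 4), and TA24E12 to TA24F03 (4 tiles) one of 1.34 ± 0.16. TA25C10 to TA25D01 (4 tiles) was at 1.29 ± 0.20, TA25C01 to TA25C03 (3 tiles) at 0.57 ± 0.21, TA21D02 to TA21D05 (4 tiles) at 0.62 ± 0.09 and TA28H09 to TA28H12 (4 tiles) at 0.61 ± 0.06. TA29D04 to TA29D11, with 5 measured tiles and 3 missing wells, was at 0.53, 1.38, 0.54 and 1.52 in replicates I to IV. It was thus higher in II and IV than in I and III.

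The highest tile of the stretch was no part of an island. TA29A12 was at 2.08, 2.28, 2.07 and 2.35 in replicates I to IV, between TA29A11 at a mean of -0.01 and TA29B01 at 0.45. TA29B01 too was above the array median in every replicate, so these high tiles formed a pair. Single high tiles bordered the largest falls between adjacent wells. TA30H10 was at 1.85, 1.72, 1.78 and 1.48, and TA30H11 at -3.37, -3.65, -3.30 and -4.11, where the level fell by 5.32 with an SD of 0.22. TA21B11 was at 1.24, 0.56, 1.15 and 1.27, and TA21B12 at -3.65, -3.75, -3.45 and -4.12. In both cases the groups of 4 values were far apart.

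Steps between adjacent wells were described against the array as a whole, without a test. The median absolute step was 0.63 over 741 pairs, against 0.57 over 20590 pairs of all tiles, and 22 steps (2.97%) exceeded 3, against 1.27%. Neighbouring tiles had similar levels. With each plate's median removed, adjacent tiles had a Pearson's r of 0.63 ± 0.03 (SD, n = 4 replicates), against 0.54 ± 0.01 for all other tiles. A higher r was not particular to the stretch, as it was 0.67 ± 0.01 on the following plates TA31 to TA36. It was 0.53 ± 0.01 on TA01 to TA20, 0.46 ± 0.01 on TA37 to TA51 and 0.33 ± 0.04 on TC17 to TC25. At a distance of 3 tiles the r of the stretch was 0.43 ± 0.01, against 0.20 ± 0.01 for all other tiles. At 5 tiles these were 0.31 ± 0.01 and 0.11. At 12 tiles both were 0.03. These correlations are across tiles of the same arrays, which share plate, print and hybridisation, and are a description.

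Read down the columns of the plates in place of along the rows, adjacent tiles had an r of 0.03. Row medians over the 10 plates ran from -2.43 ± 0.08 (SD, n = 4) in row H to -1.46 ± 0.11 in row D, and column medians from -2.42 ± 0.09 in column 3 to -1.82 ± 0.08 in column 2. Across the 11 borders from TA20 with TA21 to TA30 with TA31, the last and first tiles differed by a median of 0.53 in either direction, and by under 1 at 9 borders. The largest change, 2.10, was from TA27H12 at -3.28 to TA28A01 at -1.19.

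Blank tiles were frequent in the stretch, a feature that the choice of plates by level did not use. Of the 886 tiles listed on the 10 plates, 62 (7%) carried no value in any replicate, against 403 of 20875 (1.93%) on the other plates. This share was 2.46% on TA01 to TA20, 3.47% on TA31 to TA36, 0.666% on TA37 to TA51 and 3.21% on TC17 to TC25. The blank tiles were unevenly spread over the plates, with 18 on TA25, 11 each on TA28 and TA30, 9 each on TA21 and TA23, and none on TA24, TA26 and TA29. A further 74 of the 960 well positions are not listed, 36 of them on TA22 and 19 on TA29. This was 7.71% of positions, against 1.61% on all plates outside TA21 to TA30. Within those plates it was 6.11% on TA37 to TA51 and 6.37% on TC17 to TC25, so unlisted wells were frequent in the other low stretches too. The sources used here do not state why a tile carries no value, and the difference in share was not tested.

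Tiles beside a blank well were lower than the others in every replicate. The 67 such tiles had a median of -2.89, -2.50, -2.57 and -2.59 in replicates I to IV, and 41.8% of their means were more than 3 below the array median. The 691 tiles with a measured neighbour on both sides had medians of -2.12, -1.96, -2.14 and -1.85, and 18.8% were that low. On all other plates tiles beside a blank well had a median of -0.27 ± 0.04 (SD, n = 4) and those between measured wells one of 0.07. On TA37 to TA51, 6.67% of the 15 tiles beside a blank well were more than 3 below, against 16.9% between measured wells. On TC17 to TC25 these shares were 28.6% of 35 tiles and 14.3%, so the other low stretches differed in direction by this share. By the median, tiles beside a blank well were the lower ones in both. They were at -2.55 ± 0.10 against -2.25 ± 0.13 on TA37 to TA51, and at -2.45 ± 0.15 against -2.31 ± 0.13 on TC17 to TC25. The shares more than 3 below were 19.5% of 87 tiles and 4.31% on TA01 to TA20, and 2.86% of 35 and 4.03% on TA31 to TA36. In the stretch, the 66 tiles beside an unlisted well but no blank one had a median of -1.77 ± 0.11. Such tiles on all other plates had one of -1.47 ± 0.12. The part of blank neighbours in the low level was not tested.

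The other long low stretches of the array, TA37 to TA51 and TC17 to TC25, served for comparison, and since these too were chosen by their level no test was made. The median of TA21 to TA30 was above that of TA37 to TA51, -2.24 ± 0.13 (SD, n = 4), by 0.18, 0.16, 0.24 and 0.19 in replicates I to IV. It was above that of TC17 to TC25, -2.32 ± 0.12, by 0.28, 0.24, 0.29 and 0.31. The spread of its tiles was wider, with an SD over tiles of 1.49 ± 0.03 against 1.03 ± 0.02 and 0.93 ± 0.02, and it was wider on both sides. Its 95th percentile was 1.18 ± 0.02, against -0.16 ± 0.07 and -0.37 ± 0.10, and its 5th was -3.87 ± 0.10, against -3.52 ± 0.12 and -3.39 ± 0.09.

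High tiles accounted for 12.5% of the stretch (103 tiles), for 2.9% of TA37 to TA51 (39 of 1343) and for 2.3% of TC17 to TC25 (18 of 783). TA37 to TA51 had 2 islands of at most 3 tiles and TC17 to TC25 had 1 island of 4, against 15 islands of up to 9 tiles in TA21 to TA30. Per 100 measured tiles this was 1.82 islands in TA21 to TA30, against 0.149 and 0.128. It was 6.43 in the preceding plates TA01 to TA20 and 4.86 in the following TA31 to TA36. The medians of these flanking plates were 0.13 ± 0.04 (SD, n = 4) and -0.08 ± 0.03, above that of TA21 to TA30 by 2.18 ± 0.09 and 1.96 ± 0.11.

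**Figure D4:**
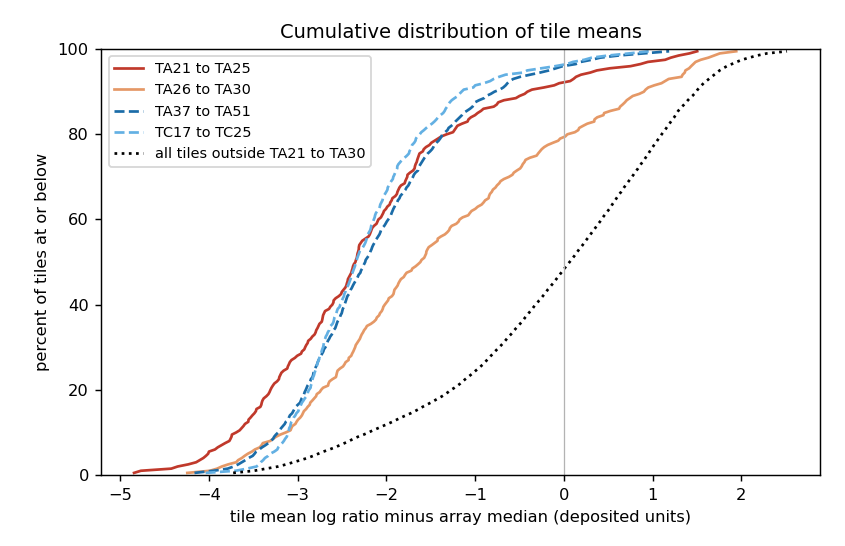
Cumulative percentage of tiles by tile mean log ratio minus array median (deposited units). Of the tiles of TA21 to TA25, 28.2% lie below -3, against 16.5% in TA37 to TA51 and 14.9% in TC17 to TC25, and the line of TA26 to TA30 crosses 0 below those of the other low stretches.

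Replicates differed little for most tiles of the stretch. The SD of a tile over the 4 replicates had a median of 0.22, the same as over all tiles, and 63 tiles (7.65%) had an SD over 0.5, against 6.18% of all tiles. Pearson's r across the 824 tiles, which are not independent, was 0.988 for the pair I and III, 0.987 for the pair II and IV, and from 0.942 to 0.953 in the other pairs. The widest spread was that of TA22A09, which was at 3.06 in I and at -0.49 in II, -0.21 in III and -0.38 in IV. Replicate I alone put this tile above the array median. TA25B09, at -4.22, -2.78, -4.05 and -2.47, and TA24H08, at -4.17, -2.68, -4.15 and -2.68, came next, with I and III below II and IV.

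The labels name no batch. Each title opens with a pair of numbers that the labels do not explain, the first unlike that of any other array and the second common to I and II, or to III and IV. With the shared number as a term in limma's fit over all tiles, III and IV differed from I and II at an adjusted p under 0.05 in 0 of the 824 tiles (background 0%). The unadjusted p was under 0.05 for 1 of them and for 37 of the 21296 tiles (0.174%), fewer than that threshold alone would give. The residual of this fit holds the differences within each pair, which ran together as given next, so the count of 0 does not show that the pairs were alike. Across the tiles of the stretch the mean of III and IV minus that of I and II had a median of 0.04, a 5th percentile of -0.16 and a 95th of 0.28. Within the pairs that share a number, the differences were larger and ran together. Across the tiles of the stretch II minus I had an r of 0.73 with IV minus III, also 0.73 for all other tiles. After removal of plate medians adjacent tiles had an r of 0.40 in II minus I and 0.35 in IV minus III, but of -0.04 in III minus I, and of 0.04 in IV minus II.

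These differences had opposite signs at different places within the low level. In the 10 tiles of TA22E08 to TA23A03 the median of II minus I was 1.03 and that of IV minus III 0.83, and both differences were positive in all 10. In TA24H07 to TA25A05 they were 0.86 and 0.95, with both positive in 10 of 11 tiles. In TA20H07 to TA21A10 they were -0.18 and -0.64, with both negative in 11 of 12 tiles. Over the whole stretch the medians were 0.08 and 0.10, and on plate TA22 they were 0.25 and 0.38.

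**Figure D5:**
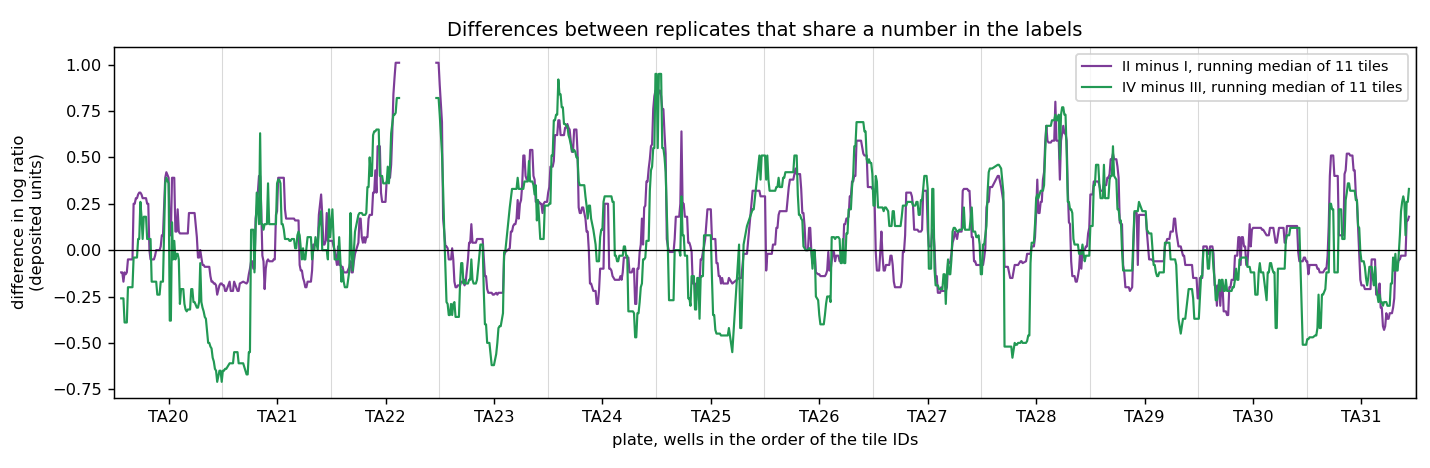
Differences in log ratio (deposited units) between replicates that share a number in the labels, II minus I and IV minus III, as running medians of 11 tiles in tile order, broken at the long gap in TA22. Both lines peak around the lowest tiles of TA22 and again at the border of TA24 and TA25, and both fall below 0 at the border of TA20 and TA21.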

How the data were processed

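The authors' deposited value table holds processed log ratios of 8 two-channel arrays for 21800 features. Of these 39 are controls without values and 21761 are tiles, of which 465 are blank on all arrays. The sources used here give neither software, background correction and normalization nor log base and direction, and scanner intensities were not used. Both arrays of a dye swap held the same value at every tile, and that value, minus its median over the 21296 tiles, was used once per replicate.

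Plates TA21 to TA30, the lists and the rules were chosen with earlier results of these data known. Tiles were named as the 5 highest and 5 lowest, those at the edges, the ends of islands, the 3 with the largest SD and the 3 largest steps. Others, such as the runs under -3, were chosen after their values were seen. Tiles were tested by lmFit and eBayes of limma (version 3.58.1, under R 4.3.3), which takes the replicates as independent. The fit against the array median had 3 residual degrees of freedom, and the fit with the shared number as a term had fewer. The procedure was run on simulated data with independent noise in each replicate. Those data lacked the likeness of I with III and II with IV, so the simulation does not cover it. Python 3.11.15 gave the other values, through scipy 1.17.1, pandas 2.3.3 and numpy 2.4.6. Alternatives were other centring and scaling, a minimum change, a number shared in the labels, averaged pairs, replicates left out and other member rules. All 8 columns were used.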

Additional observations from a re-analysis of the deposited data

Results flagged for a closer look

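Among 65 sets of 4 replicate values examined (tiles, plates, islands and runs), 4 had 1 replicate set apart relative to their range. For 4 independent values chance sets apart about 1 in 20. That rate need not hold here, as I resembled III and II resembled IV. Tile TA22A09 was examined because of its large SD, so its flag is no independent observation. In tile TA22A09 the gap between replicate I (3.06) and the others was 0.922 of the whole range. In tile TA21B11 replicate II (0.56) stood apart, with a gap of 0.829 of the range. The median of the island TA27F06 to TA27G01 was 1.28 in III and 1.12 to 1.14 elsewhere, a gap of 0.878 of the range. That of the island TA30C11 to TA30D06 was 1.43 in III and 1.30 to 1.32 elsewhere, a gap of 0.831. In both islands the replicates lay close together, with SDs of 0.08 and 0.06.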

How the results depend on the processing

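The number of tiles of TA21 to TA30 called below the array median was 681 and ran from 651 to 726 under all alternatives. It was 667 with I averaged with III and II with IV, and 694 with the shared number of the labels as a random block. That block fit estimated a correlation of -0.769 between replicates that share a number. A negative correlation makes the errors of this fit smaller. Its count is thus no check on the likeness of I with III and II with IV. The number called above was 98, and it was 48 without centring and 49 with centring on the mode. Without centring the share of called tiles of the whole array that were above moved from 49.9% to 27.2%, and with the mode to 27.8%, as the median of all tiles then lay at -0.62 and -0.65. The median of the stretch was -2.66 and -2.69 under these settings, and the mean over its tiles was -1.78. The share of its tiles more than 2 below, 51.1% on average over replicates, was 65.5% and 66.3%, and 21% lay more than 3 below. The islands numbered 6 and 4, in place of 15. The r between adjacent tiles, 0.63, was 0.03 down columns, 0.58 by Spearman's method and 0.51 without island tiles and tiles beside a missing well. With each replicate left out, 671 to 676 tiles were called below and 90 to 95 above, and the median ran from -2.08 to -2.01. The share ran from 50.1% to 52.1%, the islands numbered 15 each time and the r ran from 0.62 to 0.65. The fit of the shared number called 0 tiles under scaling and under quantile normalization too, which is no sign of likeness, since its residual holds the differences within pairs. Signal over background is unknown.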
